A study of Homo sapiens with 24 samples.

Results

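The log2 change of each gene between 0 and 8 h of 4-hydroxytamoxifen (4-OHT) in MCF-10A MYC.ER cells was compared with its change over the same time in parental MCF-10A cells. MCF-10A is an immortalised, non-tumorigenic human mammary epithelial line. The measure, called the log2 interaction here, subtracts the parental change from the change in MYC-ER cells. A value above 0 means that the gene's level rose more, or fell less, in the line that carries the fusion. It rests on 12 of the 24 libraries of the series, chosen by their labels. These were MCF-10A MYC.ER and wild-type MCF-10A, each before 4-OHT (0 h) and after 8 h of it, with 3 replicates in each of the 4 groups. All 4 groups were grown in 3D culture on Matrigel, and the 8 h groups received 1 µM 4-OHT. Treatments were started from day 3 and staggered so that all cultures were collected together on day 5. Poly(A)-selected stranded libraries were sequenced as paired reads.

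MYC is a transcription factor of the basic helix-loop-helix family that pairs with MAX and binds E-box sequences, of which CACGTG is the best known. It is known for driving genes of ribosome assembly, nucleotide synthesis and the cell cycle, and for acting with its partner MIZ1 at genes that fall. In MYC-ER the protein is joined to the ligand-binding region of an oestrogen receptor, which holds it inactive until 4-OHT binds. 4-OHT is itself a ligand of oestrogen receptors and of the membrane receptor GPER1. The parental arm therefore holds any effect of the drug without the fusion. It also holds whatever else differed between the parental 0 h and 8 h groups.

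Several limits come from the design. The labels do not say whether the MYC.ER line is a clone or a pool, whether an empty vector was used, or which species gave the receptor part. The parental line carries neither the fusion nor, as far as the labels say, a control vector, so the fusion cannot be told apart from other differences between the lines. No group received vehicle for 8 h. Nothing says that replicates came from separate cultures, so p-values measure the spread between these samples, which may be technical. MYC itself was 394, 378 and 388 CPM in MYC-ER cells at 0 h and 795, 793 and 797 CPM at 8 h. CPM are counts rescaled to a common library size, a level that is not corrected for gene length and so is compared between libraries and not between genes. In parental cells MYC was 462, 535 and 599 CPM at 0 h and 471, 475 and 443 CPM at 8 h. The MYC-ER groups did not overlap and the parental groups did, but the table holds 1 count for MYC, so transcripts of the fusion and of the cell's own gene cannot be told apart.

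Library totals ran from 149109167 to 182438505 counts over the 12 libraries, so 0 counts in the smallest library allow a level of up to 0.0201 CPM, that of 3 counts (counting error only). Spearman correlations between replicates were 0.983 to 0.991. The 3 parental 0 h libraries stood apart from each other: a chi-square comparison of counts gave 163 to 268 per degree of freedom for their pairs and 15.4 to 27.7 for the 9 pairs of the other groups. They enter every interaction and parental change. Mitochondrial transcripts took 9.24% to 9.71% of the counts in MYC-ER cells at 0 h and 5.61% to 6.58% at 8 h. In parental cells they took 3.86% to 7.28% at 0 h, where replicate 1 was the low one, and 6.50% to 7.73% at 8 h. This share moved with the MYC-ER arm, and its part in the results was not tested. All 12 genes of the basal mammary list, which includes the general epithelial genes CDH1 and EPCAM, reached 1 CPM. Their summed level was 16100 to 16700 CPM in MYC-ER cells at 0 h, 20500 to 22500 CPM at 8 h, 27500 to 33400 CPM in parental cells at 0 h and 28600 to 29500 CPM at 8 h. The 12 luminal markers summed to 230 to 248 CPM in MYC-ER cells at 0 h, 616 to 659 CPM at 8 h, 304 to 433 CPM in parental cells at 0 h and 363 to 387 CPM at 8 h, with the milk genes CSN2, CSN3 and LALBA at 0. Markers of fibroblasts, endothelium, immune cells and fat summed to 234 to 242 CPM in MYC-ER cells at 0 h and to 75.7 to 128 CPM in the other groups, most of it the collagen gene COL1A1, and CDH5, CD3E and ADIPOQ were at 0. In such bulk samples, fewer cells of a type and less RNA per cell cannot be told apart.

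Most of the genes that passed the filter on low counts were called as responding differently in the 2 lines. Of 22158 genes tested, 6058 (27.3%) had a higher and 6169 (27.8%) a lower interaction, called here and below at an adjusted p under 0.05 in edgeR's quasi-likelihood test with Benjamini-Hochberg adjustment over all genes. The interaction was at least 2-fold for 2858 of the genes called higher and 3293 of those called lower, and at least 8-fold for 638 and 667. The median log2 interaction over all genes tested was -0.08. The difference came mainly from the MYC-ER arm. There, 7141 genes (32.2%) rose and 7834 (35.4%) fell, 3353 and 4340 of them by at least 2-fold. In parental cells 3319 genes (15%) rose and 3551 (16%) fell, and only 239 and 244 of these moved by at least 2-fold. Leaving out parental 0 h replicate 1, 2 or 3 changed the interaction count of 12227 to 11799, 12983 or 12109 and the parental count of 6870 to 4775, 9195 or 4862. The parental count was 4085 genes when each library's trend with GC content was removed and only the 4 groups were fitted. Across 9784 genes the parental change went down with GC content, with a Spearman rho of -0.621, against 0.017 for the MYC-ER change and 0.233 for the interaction. These are correlations across genes, which are not independent replicates.

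Called changes in both lines were found for 5620 genes. The lines moved in the same direction at 4198 of these and in opposite directions at 1422, where 843 rose and 579 fell in MYC-ER cells. Both counts rest on parental calls, whose number ran from 4085 to 9195 over the alternatives, and their own range is not given here. Opposite changes of at least 2-fold in each line were rare, with 42 genes, 5 of which rose in MYC-ER cells. Changes of at least 2-fold in the same direction were found for 294 genes, 125 up and 169 down.

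**Figure D1:**
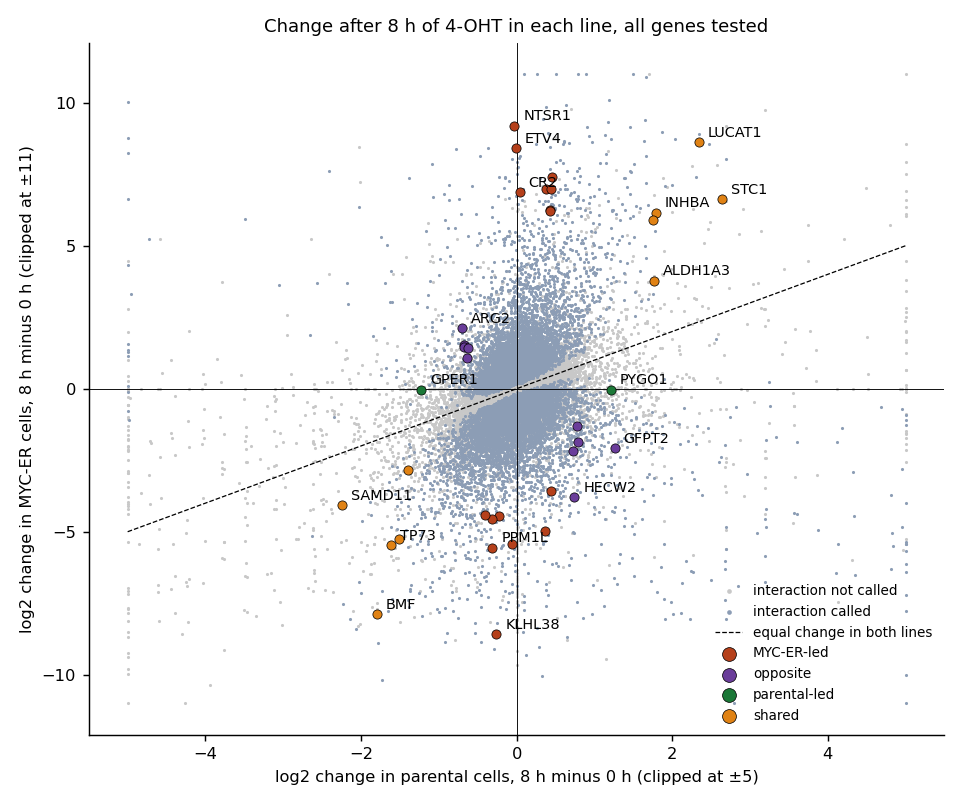
Each point is 1 of the 22158 genes tested, with its log2 change from 0 to 8 h in parental cells on the x axis and in MYC-ER cells on the y axis, both clipped as labelled. The cloud is tall and narrow: far more genes moved by 2-fold or more in MYC-ER cells than in parental cells, and genes off the dashed line of equal change carry the interaction.

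Among genes with a symbol and a mean of at least 10 CPM in at least 1 group, 4490 were called higher and 3158 lower. For 4172 and 2790 of them the parental log2 change was within 0.5 of 0, called or not. The 8 largest positive interactions of this kind belonged to NTSR1, ETV4, CHRNA9, CR2, MALL, DUSP6, ADAM12 and AMIGO2, from 9.23 down to 5.78. NTSR1, the high-affinity receptor for the peptide neurotensin, was 0.0232, 0.0340 and 0.0467 CPM in MYC-ER cells at 0 h, which is 4 to 8 counts, and 20.1, 20.2 and 22.2 CPM at 8 h. In parental cells it was 11.5, 8.03 and 12.4 CPM at 0 h and 9.79, 10.3 and 11.2 CPM at 8 h. The receptor was near absent in 1 group alone, MYC-ER cells before 4-OHT, and after 8 h it stood above the parental level.

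ETV4, an ETS-family transcription factor that is a known target of ERK signalling, was 0.0522, 0.0794 and 0.111 CPM in MYC-ER cells at 0 h and 28.1, 27 and 28.0 CPM at 8 h. It was 34.1, 27 and 36.7 CPM in parental cells at 0 h and 32.0, 31.7 and 33.1 CPM at 8 h. The log2 interaction was 8.42 (SE 0.185, adjusted p 1.27e-18), and the parental groups overlapped. DUSP6, the phosphatase that switches off ERK, was also low in MYC-ER cells at 0 h alone, but it rose in parental cells too. It was 1.33, 1.37 and 1.66 CPM in MYC-ER cells at 0 h and 184, 176 and 186 CPM at 8 h, against 225, 275 and 234 CPM and then 327, 325 and 341 CPM in parental cells. CHRNA9, a nicotinic acetylcholine receptor subunit, went from a mean of 0.0829 CPM to 14.1 CPM in MYC-ER cells and from 19.3 to 26.3 CPM in parental cells.

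CR2 stood apart from these genes because it was low in every other group. This complement receptor, best known on B cells and follicular dendritic cells, was 0.0928, 0.204 and 0.128 CPM in MYC-ER cells at 0 h and 17.6, 16.6 and 16.1 CPM at 8 h. In parental cells it was 0.153, 0.171 and 0.113 CPM at 0 h and 0.124, 0.139 and 0.185 CPM at 8 h. Its log2 interaction was 6.84 (SE 0.717, adjusted p 4.04e-08). The difference between the lines was -0.04 on the log2 scale at 0 h and 6.80 at 8 h, so CR2 was a rise from a level that both lines shared.

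The 8 most negative interactions of this kind belonged to KLHL38, MAP7D2, NBEAP1, PPM1L, TRMT9B, GHR, CORO6 and SERPINB13, from -8.33 to -4.02. KLHL38, a kelch-family protein, had 0 to 9 counts in the parental libraries, so its size is poorly fixed. NBEAP1 is a pseudogene of neurobeachin, and reads may be split with its relatives. PPM1L, a metal-dependent protein phosphatase that acts on stress kinases, was 156, 161 and 143 CPM in MYC-ER cells at 0 h and 3.38, 3.18 and 3.18 CPM at 8 h. It was 3.89, 5.18 and 2.65 CPM in parental cells at 0 h and 3.05, 3.6 and 2.78 CPM at 8 h. High PPM1L was thus a property of MYC-ER cells before 4-OHT, and 8 h brought it to the parental range.

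MAP7D2, a microtubule-associated protein, was also high before 4-OHT, with 32.3, 33.0 and 29 CPM in MYC-ER cells at 0 h and 0.788, 0.582 and 0.820 CPM at 8 h. The parental values were 0.417, 0.360 and 0.339 CPM at 0 h and 0.456, 0.266 and 0.352 CPM at 8 h. After 8 h MAP7D2 was still above all 6 parental libraries. SERPINB13, a serpin of squamous epithelium also known as headpin, behaved differently from these. It was 8.57, 9.71 and 8.36 CPM in MYC-ER cells and 8.22, 12.4 and 7.55 CPM in parental cells at 0 h, with overlapping groups. At 8 h it was 0.701, 0.766 and 0.767 CPM in MYC-ER cells and 13.5, 12.7 and 12.2 CPM in parental cells, so the lines parted only after 4-OHT.

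The promoters of MAP7D2 and PPM1L are shown because these 2 genes had the most negative interactions of those above with a RefSeq promoter, and the first holds the E-box. Each is the 300-base RefSeq window on GRCh38.p14 from 250 bases before to 50 bases after the start of the gene. Capitals mark CACGTG, which occurs at bases 69, 117 and 166 of the MAP7D2 window and reads the same on both strands. The window of MAP7D2 (ENSG00000184368.16) is chrX:20116858-20117157 on the minus strand, and that of PPM1L (ENSG00000163590.14) is chr3:160870348-160870647 on the plus strand. The PPM1L window holds neither this motif nor the AP-1 and forkhead motifs described further on, all searched on both strands.
MAP7D2: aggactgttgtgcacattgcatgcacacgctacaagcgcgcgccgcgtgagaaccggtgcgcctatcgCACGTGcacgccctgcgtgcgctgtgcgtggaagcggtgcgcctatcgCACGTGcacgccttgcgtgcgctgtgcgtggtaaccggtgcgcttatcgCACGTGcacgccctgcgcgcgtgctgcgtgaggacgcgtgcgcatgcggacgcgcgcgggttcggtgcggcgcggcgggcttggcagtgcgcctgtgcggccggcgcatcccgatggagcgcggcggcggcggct
PPM1L: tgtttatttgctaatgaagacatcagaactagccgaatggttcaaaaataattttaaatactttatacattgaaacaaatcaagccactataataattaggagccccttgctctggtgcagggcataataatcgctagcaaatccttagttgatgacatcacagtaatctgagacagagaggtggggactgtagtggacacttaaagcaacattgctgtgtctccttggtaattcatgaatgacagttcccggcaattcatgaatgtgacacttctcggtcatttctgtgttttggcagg
Over 27305 RefSeq promoters, 7.43% hold CACGTG. Among tested genes with a promoter it was in 10.7% of those called higher (479 of 4467), 9.23% of those called lower (379 of 4107) and 8.86% of those not called (413 of 4662). The difference between these shares was not tested, and a match is a sequence description and not a measured binding site.

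A second class, which overlaps the first, held genes called in both lines in opposite directions. It held for 779 of the genes called higher and 425 of those called lower at 10 CPM or more. The 5 that rose in MYC-ER cells with the largest smaller change were ARG2, ABCA3, GNB1L, GTF2H4 and CDH16, with log2 interactions of 2.82, 2.22, 2.14, 1.70 and 2.04. ARG2, the mitochondrial arginase, was 2.06, 2.31 and 2.08 CPM in MYC-ER cells at 0 h and 9.78, 8.97 and 9.36 CPM at 8 h. In parental cells it fell from 18.4, 17.9 and 21.5 CPM to 11.4, 12.4 and 11.9 CPM. The groups within each line did not overlap, and the lines approached each other. For GTF2H4, a subunit of the repair and transcription factor TFIIH, the parental groups overlapped.

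The 5 that fell in MYC-ER cells were GFPT2, ENTPD3, SORL1, HECW2 and SYNPO, with log2 interactions of -3.33, -2.64, -2.05, -4.53 and -2.91. GFPT2, which makes the first intermediate of the hexosamine pathway, was the 1 named gene with opposite changes of at least 2-fold in each line. It was 18.6, 18.8 and 19.4 CPM in MYC-ER cells at 0 h and 4.64, 4.70 and 4.21 CPM at 8 h. In parental cells it was 0.497, 0.491 and 0.470 CPM at 0 h and 1.28, 0.906 and 1.30 CPM at 8 h. The parental rise stayed at a low level, and GFPT2 was still higher in MYC-ER cells at 8 h.

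An interaction was taken as led by the parental arm where the parental change was called, at least 2-fold and larger than the MYC-ER change. At 10 CPM or more, 1 such gene was higher and 1 lower. Smaller parental changes were not counted here. GPER1, the membrane oestrogen receptor to which 4-OHT binds, was 27.3, 20.1 and 26.4 CPM in parental cells at 0 h and 9.88, 11 and 10.7 CPM at 8 h. In MYC-ER cells it was 6, 5.77 and 5.63 CPM at 0 h and 5.20, 5.74 and 6.13 CPM at 8 h. It fell by 1.23 on the log2 scale in parental cells, while the MYC-ER change was -0.03 (95% interval -0.24 to 0.18), and the interaction was 1.20 (adjusted p 2.17e-07). PYGO1, a PHD-finger cofactor of Wnt signalling, did the reverse. It rose from 2.41, 3.71 and 3.65 CPM to 7.65, 7.84 and 7.10 CPM in parental cells and was 12.5, 14.7 and 12.2 CPM and then 11.5, 15.3 and 11.7 CPM in MYC-ER cells. Its interaction was -1.24 (adjusted p 1.99e-05), and in both genes the MYC-ER groups overlapped and the parental level moved towards that of the MYC-ER line.

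Genes that moved by at least 2-fold in the same direction in both lines numbered 30 up and 27 down at 10 CPM or more. STC1, LUCAT1, INHBA, ALDH1A3 and DEPP1 led the first group, SAMD11, BMF, TP73, ATOH8 and WFDC21P the second. The interaction was called for all 10, and each moved further in MYC-ER cells. INHBA, which encodes the subunit of activin A, was 0.365, 0.295 and 0.432 CPM in MYC-ER cells at 0 h and 26.2, 25.9 and 25.4 CPM at 8 h. In parental cells it went from 5.10, 6.06 and 3.63 CPM to 14.8, 15.8 and 20.7 CPM, a log2 rise of 1.79 against 6.15. STC1, the secreted hormone stanniocalcin, rose by 6.62 in MYC-ER cells and by 2.64 in parental cells on the log2 scale. It started at like levels, 0.115 CPM ± 0.025 (SD, n = 3) and 0.146 CPM ± 0.081, and its interaction was 3.98.

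BMF, a BH3-only protein that promotes cell death, was 39.2, 38.8 and 41.7 CPM in MYC-ER cells at 0 h and 0.166, 0.206 and 0.133 CPM at 8 h. In parental cells it was 2.28, 2.15 and 2.05 CPM at 0 h and 0.742, 0.633 and 0.488 CPM at 8 h. The MYC-ER level began above the parental one and ended below it, with a log2 interaction of -6.09. SAMD11 fell from 21.0, 16.8 and 19.0 CPM to 1.11, 1.12 and 1.13 CPM in MYC-ER cells, and from 15.8, 11.4 and 14.5 CPM to 3.19, 3.44 and 2.14 CPM in parental cells. Its interaction was the smallest of the 5 falling genes after WFDC21P, -1.83 against -1.45.

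The 5 most abundant genes called with an interaction of at least 2-fold were KRT6A, S100A2, KRT14, HSPA8 and ACTB, with interactions of 1.48, 3.75, 1.72, 2.62 and 2.75. These have close relatives or pseudogenes, and the treatment of multiply matching reads is not given in the sources used here, so their sizes are uncertain.

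**Figure D2:**
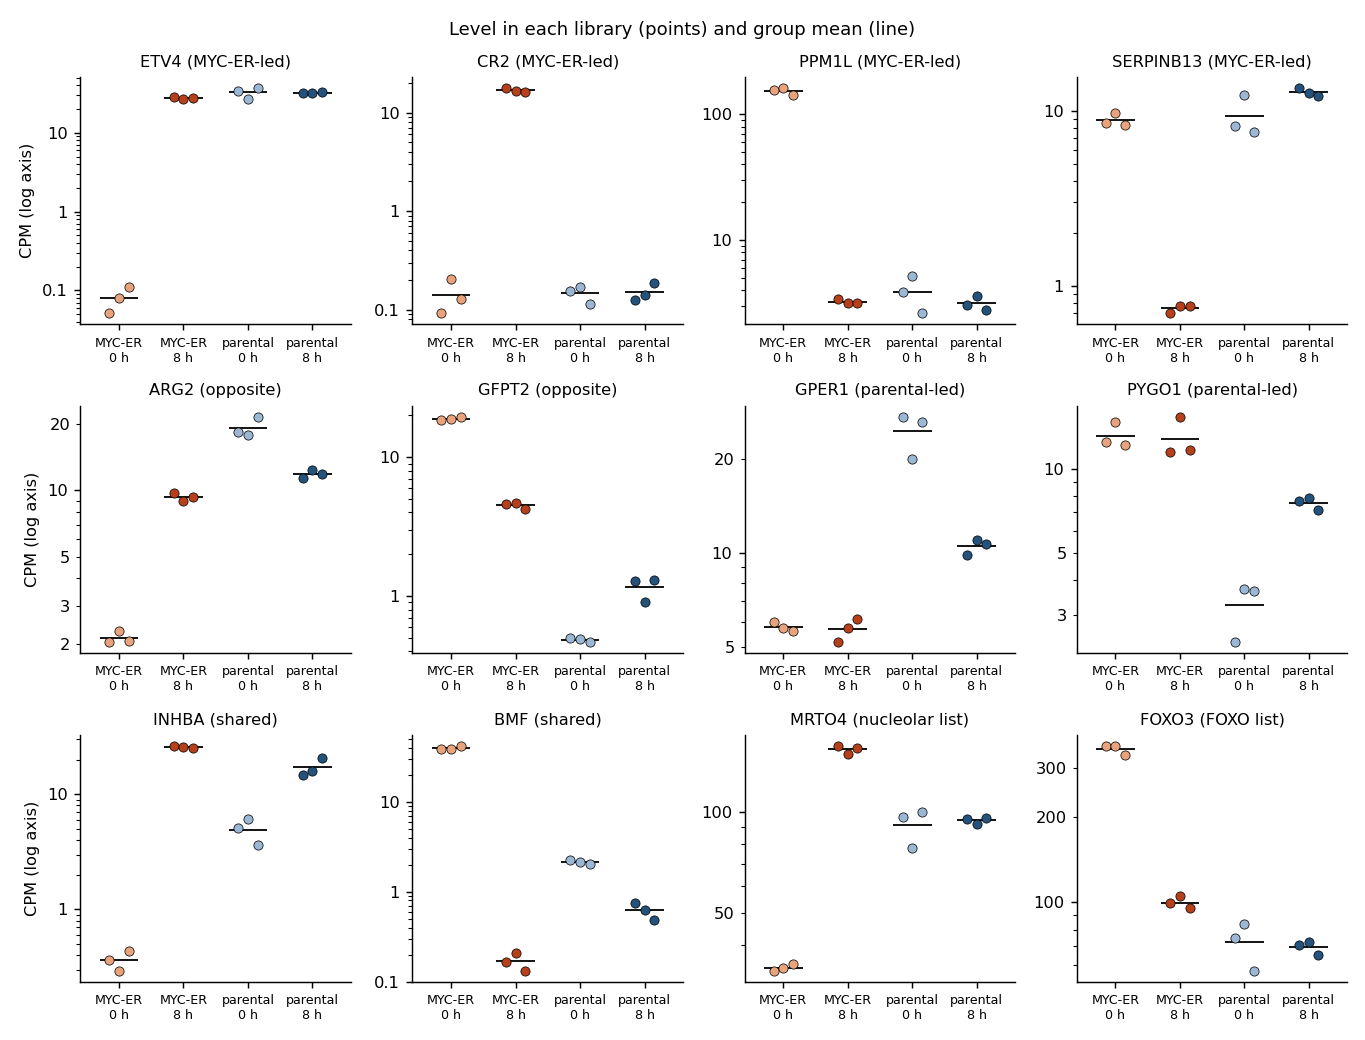
Level of 12 genes in CPM on log axes, with 1 point per library, 3 per group, and a line at the group mean. ETV4 and MRTO4 are low in MYC-ER cells at 0 h alone, PPM1L and FOXO3 are highest there, CR2 and SERPINB13 part from the parental level after 8 h, and GPER1 and PYGO1 move in parental cells.

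Genes were then grouped by role. The counts given for a list are of members called in the interaction, to be read against the 27.3% of all genes called higher and the 27.8% called lower, and the median is that of the log2 interaction, against -0.08 over all genes. All 30 nucleolar factors that assemble ribosomes were called higher, with a median of 1.40. In MYC-ER cells all 30 rose, with a median log2 change of 1.42, and in parental cells 7 rose and 5 fell, with a median of 0.04. LYAR, a nucleolar growth regulator, had the largest interaction, 3.28, and NPM1, the abundant chaperone of the nucleolus, the smallest, 0.49. BOP1 and PES1 are partners in a complex that processes the large subunit's RNA, and their interactions were 2.51 and 1.60. MRTO4, which builds the stalk of the large subunit, was 33.6, 34.2 and 35.1 CPM in MYC-ER cells at 0 h and 157, 149 and 155 CPM at 8 h. The parental values were 96.5, 78.2 and 99.7 CPM at 0 h and 95.2, 92.2 and 95.7 CPM at 8 h, so MRTO4 went from below to above a parental level whose groups overlapped. RRP9, a protein of the U3 small nucleolar ribonucleoprotein, went from 26.2, 28.5 and 28.3 CPM to 85.8, 80.2 and 86.9 CPM in MYC-ER cells.

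Promoters of 3 nucleolar genes are shown because, of members whose window holds CACGTG, they had the largest interactions. The motif is in capitals. MRTO4 (ENSG00000053372.5, chr1:19251555-19251854, plus strand) has it at base 265, RRP9 (ENSG00000114767.7, chr3:51941855-51942154, minus strand) at base 246 and PES1 (ENSG00000100029.18, chr22:30591861-30592160, minus strand) at base 264.
MRTO4: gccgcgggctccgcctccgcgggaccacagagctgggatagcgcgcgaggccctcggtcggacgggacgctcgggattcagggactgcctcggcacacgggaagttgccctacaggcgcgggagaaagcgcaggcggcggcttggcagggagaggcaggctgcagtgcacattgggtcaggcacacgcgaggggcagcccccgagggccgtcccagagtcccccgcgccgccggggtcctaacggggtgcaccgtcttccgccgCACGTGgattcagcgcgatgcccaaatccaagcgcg
RRP9: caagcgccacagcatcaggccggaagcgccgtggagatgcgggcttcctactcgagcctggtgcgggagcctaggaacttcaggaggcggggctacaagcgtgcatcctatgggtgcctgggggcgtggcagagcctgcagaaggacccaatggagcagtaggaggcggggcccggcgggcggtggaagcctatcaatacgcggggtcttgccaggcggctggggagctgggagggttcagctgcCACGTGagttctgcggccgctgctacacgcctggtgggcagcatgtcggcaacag
PES1: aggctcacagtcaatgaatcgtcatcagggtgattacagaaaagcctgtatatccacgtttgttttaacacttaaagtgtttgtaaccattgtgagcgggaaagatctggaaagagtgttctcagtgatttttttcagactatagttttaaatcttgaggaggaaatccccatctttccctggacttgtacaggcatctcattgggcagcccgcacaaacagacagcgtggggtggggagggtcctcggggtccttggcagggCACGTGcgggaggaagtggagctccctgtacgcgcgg
The motif was in 10 of the 24 nucleolar promoters found in RefSeq, 41.7%, against 9.60% of 13236 tested genes with a promoter. The 10 with it had a median log2 interaction of 1.45 and the 14 without it 1.25, so members without the motif in this window also rose. Among lists described further on, CACGTG was in 4 of 21 promoters of the FOXO list (19.0%), which was mostly called lower. It was in 4 of 23 of the activin list (17.4%), whose median was 0, and in 0 of 23 of the matrix list.

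The machinery of RNA polymerases I and III, which transcribe ribosomal and transfer RNA, was mostly higher too, with smaller sizes. Of 33 members, 25 were called higher and 2 lower, with a median of 0.72. POLR3G, a polymerase III subunit of proliferating and stem cells, had 2.24 and POLR1G 1.86. UBTF, which opens ribosomal genes to polymerase I, was not called (-0.08, 95% interval -0.24 to 0.07), but was at -0.21 (adjusted p 0.0161) when libraries were scaled by their size alone. The 2 called lower were BRF2 at -0.27 and TAF1D at -0.43. BRF2 was not called when only the 4 groups were fitted (adjusted p 0.0859), nor TAF1D when the GC trend was removed (adjusted p 0.623).

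Nucleotide and polyamine synthesis had 20 of 26 tested members called higher and 3 lower, with a median of 1.22. RRM2, the regulated subunit of ribonucleotide reductase, was 0.696, 0.868 and 1.03 CPM in MYC-ER cells at 0 h and 28.4, 26.8 and 24.7 CPM at 8 h. Parental cells held 126, 154 and 143 CPM at 0 h and 224, 203 and 214 CPM at 8 h, far above MYC-ER cells at both times. IMPDH1, which makes guanine nucleotides, had an interaction of 2.67 and ODC1, the first enzyme of polyamine synthesis, 2.60. The members called lower included RRM1, the other reductase subunit, at -0.71, so the 2 subunits moved apart. In the MYC network 6 of 12 members were called higher and 2 lower, with a median of 0.34. MAX was higher (0.50), and so were the MYC antagonists MXD1 (0.94) and MNT (0.88). MYCL, a paralogue of MYC, was lower at -4.12, from 1.00, 1.13 and 1.14 CPM to 0.108, 0.177 and 0.120 CPM in MYC-ER cells.

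Genes of DNA replication were called higher at 27 of 29 members, with 1 lower and a median of 1.19. MCM10, which helps to fire origins, had 4.97 and CDC45, part of the replicative helicase, 4.55. CDC45 was 0.261, 0.204 and 0.199 CPM in MYC-ER cells at 0 h and 5.64, 5.81 and 5.45 CPM at 8 h, and 29.9, 26.2 and 31.1 CPM and then 31.9, 31.4 and 31.3 CPM in parental cells. Its 8 h level was thus still far below the parental one. MCM7, another helicase subunit, was not called (0.02, 95% interval -0.15 to 0.20), and GINS3 was the 1 called lower, at -0.65. Mitosis genes were called higher at 21 of 28 members and lower at 4, with a median of 0.99. CDC20, which activates the anaphase-promoting complex, rose from 0.922, 0.868 and 1.29 CPM to 10.2, 9.36 and 9.35 CPM in MYC-ER cells and was 136 to 172 CPM in all 6 parental libraries. CENPE at -0.83 and CCNA2 at -0.72 were lower, so the list did not move as a block.

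Of 20 G1 regulators, 11 were called higher and 4 lower, with a median of 0.58. E2F1, which drives S-phase genes, was 0.429, 0.550 and 0.742 CPM in MYC-ER cells at 0 h and 9.74, 9.32 and 9.25 CPM at 8 h, against 20, 16.9 and 20.6 CPM and 19.1, 20.5 and 20.5 CPM in parental cells. E2F2 (4.35), the cyclin CCND1 (2.38) and the phosphatase CDC25A (2.14) were also higher. The kinase inhibitors CDKN1B (-1.16) and CDKN1C (-1.36) were lower, whereas CDKN1A, the p53-induced inhibitor, was not called (0.03, 95% interval -0.14 to 0.19). Drivers and inhibitors of G1 thus included members called in opposite directions.

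The feedback inhibitors and ETV factors downstream of ERK had the highest median of the lists, 3.32, with 16 of 17 members called higher and none lower. SPRED3 was the member not called. DUSP1 had the smallest interaction, 0.22, and was graded weaker in 14 alternatives. The number called higher ran from 14 to 16 over the alternatives. Besides ETV4 and DUSP6, SPRY4, an inhibitor of receptor tyrosine kinase signalling, had 6.34 and ETV5 5.74. SPRY4 was 0.887, 0.964 and 0.753 CPM in MYC-ER cells at 0 h and 108, 110 and 114 CPM at 8 h, and 52.2 to 62.9 CPM and then 85.8 to 89.5 CPM in parental cells. ETV4, DUSP6 and SPRY4 were thus low in MYC-ER cells at 0 h alone. The early AP-1 and EGR factors were mixed, with 12 of 18 called higher and 5 lower and a median of 0.71. EGR1 had 3.15 and FOSL1, the AP-1 subunit FRA1, 3.38, while the stress factor ATF3 was lower at -3.06 and KLF4 at -1.86. BATF3, an AP-1 partner known from dendritic cells, was 0.110, 0.125 and 0.181 CPM in MYC-ER cells at 0 h and 7.08, 7.06 and 7.67 CPM at 8 h. All 6 parental libraries held 0.297 to 0.475 CPM, so BATF3 ended above the parental level.

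EGF-family ligands and receptors did not share a direction, with 7 of 16 called higher and 6 lower and a median of 0.40. Among the ligands, NRG1 (3.10), EREG (2.77), HBEGF (2.61) and AREG (1.71) were higher and EPGN (-2.18) was lower. The receptors EGFR (-0.60) and ERBB3 (-1.42) were lower. Both of these receptors lay on the other side of 0 from 4 of the 5 ligands named.

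FOXO factors and the genes known to rise in starved cells were mostly lower. Of 24 members, 20 were called lower and 1 higher, with a median of -1.35. In MYC-ER cells 22 fell and 1 rose, with a median log2 change of -1.43. In parental cells 14 fell and 3 rose, with a median of -0.38. Of all genes, 35.4% fell in MYC-ER cells and 16% in parental cells. The list median thus fell in both lines, and further in MYC-ER cells. FOXO3 was 358, 357 and 333 CPM in MYC-ER cells at 0 h and 99.2, 105 and 95.1 CPM at 8 h, against 74.9, 84.1 and 57.3 CPM and 70.5, 72.3 and 64.8 CPM in parental cells. The factor was lower after 8 h and still above the parental level. FBXO32, the ubiquitin ligase atrogin-1, was 120, 119 and 119 CPM in MYC-ER cells at 0 h and 1.25, 1.35 and 1.67 CPM at 8 h, below the parental 2.25 to 5.04 CPM. PDK4, a brake on glucose oxidation, had -4.90 and the autophagy gene GABARAPL1 -3.03. TRIB1, a pseudokinase, was the exception at 3.74.

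Genes of the activin and TGF-beta pathway were called higher at 9 of 25 members and lower at 11, with a median of 0. The larger number called lower did not hold: it was 7, with 9 higher, without MYC-ER 0 h replicate 2, without parental 0 h replicate 3 or without parental 8 h replicate 3, and with the GC trend removed. INHBA was among the members called higher, and the co-receptor TGFBR3 was lower (-3.85). In the BMP list, 6 of 19 tested members were called higher and 10 lower, with a median of -0.20. With only the 4 groups fitted the counts were 5 and 6, with the GC trend removed 7 and 7, and with both changes 6 and 6. BMP6, a ligand, had 8.02, but with 0, 3 and 0 counts in the MYC-ER libraries at 0 h its size is poorly fixed, and it was 11.09 without MYC-ER 0 h replicate 2. ID1, a direct target of BMP signalling, rose in MYC-ER cells from 87.4, 71.8 and 82.8 CPM to 248, 234 and 256 CPM and fell in parental cells from 371, 290 and 399 CPM to 228, 229 and 232 CPM. The lines met at 8 h, where they differed by 0.10 on the log2 scale. ATOH8, another target of the pathway, had -3.73 and the inhibitor SMAD6 -1.36.

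Matrix proteases and their inhibitors held some of the largest values in either direction. Of 24 members tested, 12 were called higher and 9 lower, with a median of 0.55. When only genes with at least 10 counts in every library were kept, 7 were higher and 10 lower, with a median of -0.47. TFPI2, a secreted inhibitor of serine proteases, was 0.0232, 0.0284 and 0.0292 CPM in MYC-ER cells at 0 h, 4 or 5 counts each, and 29.3, 27.7 and 22.6 CPM at 8 h. The parental libraries held 2.82, 2.96 and 3.50 CPM at 0 h and 4.22, 5.19 and 4.96 CPM at 8 h, and the log2 interaction was 9.27. MMP10, the metalloprotease stromelysin-2, was 0.0290, 0.0284 and 0.0175 CPM and then 10.9, 11.2 and 11 CPM in MYC-ER cells, and 2.36, 1.91 and 2.79 CPM and then 4.55, 4.62 and 7.23 CPM in parental cells. Both genes were near absent in MYC-ER cells at 0 h and ended above the parental level. MMP1 (8.15), MMP3 (7.75) and MMP9 (7.12) were also called higher. MMP3 and MMP9 had counts in 1 MYC-ER library at 0 h alone, 2 and 4, so their sizes are poorly fixed, and without that library, replicate 3, they were 10.32 and 10.56. MMP7, or matrilysin, was lower (-2.75), as was RECK (-2.21), a membrane inhibitor of metalloproteases.

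The promoter of MMP10 (ENSG00000166670.10, chr11:102780579-102780878, minus strand) is shown because it holds the AP-1 motif TGANTCA, in capitals at base 184. It was chosen after its values were seen.
MMP10: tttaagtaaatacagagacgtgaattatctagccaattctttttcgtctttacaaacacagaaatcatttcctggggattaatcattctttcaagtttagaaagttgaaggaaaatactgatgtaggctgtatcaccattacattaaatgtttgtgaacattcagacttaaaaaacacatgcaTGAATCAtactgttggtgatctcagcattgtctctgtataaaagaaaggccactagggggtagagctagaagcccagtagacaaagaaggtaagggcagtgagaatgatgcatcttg
TGANTCA was in 7 of the 15 protease-list promoters found, 46.7%, against 5.49% of tested genes with a promoter and 7.76% of all RefSeq promoters. The 7 with it (F3, MMP10, MMP7, PLAUR, SERPINB2, SERPINB5 and TFPI2) had a median log2 interaction of 2.49 and the 8 without it -0.56. MMP7 and SERPINB2 hold the motif and had negative values, -2.75 and -0.81, the second of which was not called when the GC trend was removed (adjusted p 0.124). In the keratin list the motif was as frequent, in 6 of 14 promoters or 42.9%, beside a list median of 0.05. TGTTTAC, a motif of FOXO and other forkhead factors, was in 3 of 21 FOXO-list promoters, 14.3%, against 2.51% of tested genes.

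Matrix and basement membrane proteins were called lower at 15 of 25 members and higher at 8, with a median of -0.49. NID1, the basement membrane linker nidogen-1, was 32.3, 30.9 and 28.0 CPM in MYC-ER cells at 0 h and 0.412, 0.376 and 0.554 CPM at 8 h, against 0.332 to 1.18 CPM in parental cells. TNC, the adhesion-modulating glycoprotein tenascin-C, had 3.63. Keratins and squamous genes had 9 of 28 called higher and 8 lower, with a median of 0.05. KRT18 (2.40) and involucrin, IVL (2.11), were higher, and the desmosomal cadherins DSG3 (-2.58) and DSG1 (-2.26) were lower.

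Cytokines and NF-kB feedback genes were called higher at 8 of 28 tested members and lower at 9, with a median of -0.24. IL33, an alarmin of epithelia, was 0.122, 0.0397 and 0.158 CPM in MYC-ER cells at 0 h and 7, 7.06 and 6.06 CPM at 8 h, and 0.994 to 1.35 CPM and then 2.79 to 3.56 CPM in parental cells. CSF1 (-3.97), the macrophage growth factor, CXCL2 (-2.64) and BIRC3 (-2.62), both known NF-kB targets, were lower. CSF2 had 0 counts in all 3 MYC-ER libraries at 0 h, so no size is given for it. Interferon-stimulated genes were also split, with 7 of 25 called higher and 10 lower and a median of -0.51. RSAD2 (2.48) and OASL (1.97) were higher and IFI44L (-2.58) and IFI27 (-2.08) lower, all 4 known as interferon-induced.

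In metabolism, 27 of 30 glycolysis and hypoxia genes were called higher and 2 lower, with a median of 1.14. CA9, a carbonic anhydrase known as a hypoxia marker, was 0.151, 0.249 and 0.169 CPM in MYC-ER cells at 0 h and 15, 13.1 and 17.4 CPM at 8 h, while the parental libraries held 0.251 to 0.883 CPM. EGLN3, an oxygen sensor, had 5.11 and LDHA, lactate dehydrogenase A, 2.54. The 2 called lower were SLC2A3, a glucose transporter, at -2.36 and PFKM, the muscle phosphofructokinase, at -0.78. Sterol and fatty acid synthesis had 20 of 26 tested members called higher and 4 lower (2 when only the 4 groups were fitted or the GC trend was removed), with a median of 0.74. DHCR7 (2.15) and MVD (1.94) were higher and LSS (-0.58), which closes the sterol rings, was lower.

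Genes known as targets of oestrogen receptors or of the aryl hydrocarbon receptor formed another list. In parental cells, which receive 4-OHT without the fusion, 4 of 19 members tested rose and 2 fell, with a median log2 change of 0.04. A change that both lines share drops out of the interaction. There, 10 of the 19 were called lower and 7 higher, with a median of -1.27. This median became -0.10 when only genes with at least 10 counts in every library were kept. GREB1, a widely used oestrogen target, was 52.4, 51.0 and 47.5 CPM in MYC-ER cells at 0 h and 2.60, 2.46 and 2.66 CPM at 8 h, and 3.09 to 4.04 CPM and then 2.94 to 3.03 CPM in parental cells. STC2, another oestrogen target, went the other way, from 8.80, 8.69 and 8.50 CPM to 95.7, 93.4 and 114 CPM in MYC-ER cells, against 23.0 to 31.3 CPM in the parental libraries. IGFBP5 (-4.09) and the dioxin-induced CYP1B1 (-3.55) were lower. ESR1, the receptor gene, was called lower. It had 96, 93 and 78 counts in MYC-ER cells at 0 h and 0, 5 and 0 at 8 h, so its size is poorly fixed: the log2 interaction was -5.70, and -9.72 without MYC-ER 8 h replicate 2. Reads from the receptor part of the fusion, if human, would count towards it. The mean of ESR1 was 0.513 CPM in MYC-ER cells and 0.183 CPM in parental cells at 0 h. At 8 h it was 0.0118 CPM in MYC-ER cells and 0.232 CPM in parental cells, which carry no fusion. The source of these reads was not tested. The p53 target and BCL2 family list had 11 of 28 called higher and 10 lower, with a median of 0.04, and 9 and 11 under scaling by library size alone. BCL2, which blocks cell death, rose from 0.244, 0.198 and 0.216 CPM to 6.37, 6.45 and 5.04 CPM in MYC-ER cells, with an interaction of 4.18. The p53 targets TP53INP1 (-2.38) and BBC3 (-1.97), the latter a BH3-only protein like BMF, were lower. BCL2A1 had 0 counts in all 3 MYC-ER libraries at 0 h, so no size is given.

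Of the marker lists, only the basal one was mostly called higher. The luminal and other-cell lists were called at shares near or below those of all genes. Of the 12 genes in the basal list 7 were called higher and 3 lower, with a median of 1.37, from EPCAM at 3.52 to TP63 at -0.87. The list includes EPCAM and CDH1, which are general epithelial genes. Among its keratins, KRT17 (1.83) and KRT14 (1.72) were higher and KRT5 was not called (-0.09). Of 8 luminal markers tested 2 were called higher (FOXA1 at 2.88 and KRT18) and 2 lower, with a median of 0.55. Of 7 markers of other cell types tested, 2 were called higher and 1 lower, with a median of 0.34. PECAM1, an endothelial adhesion gene, had 3.45 and COL1A1 -1.28.

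**Figure D3:**
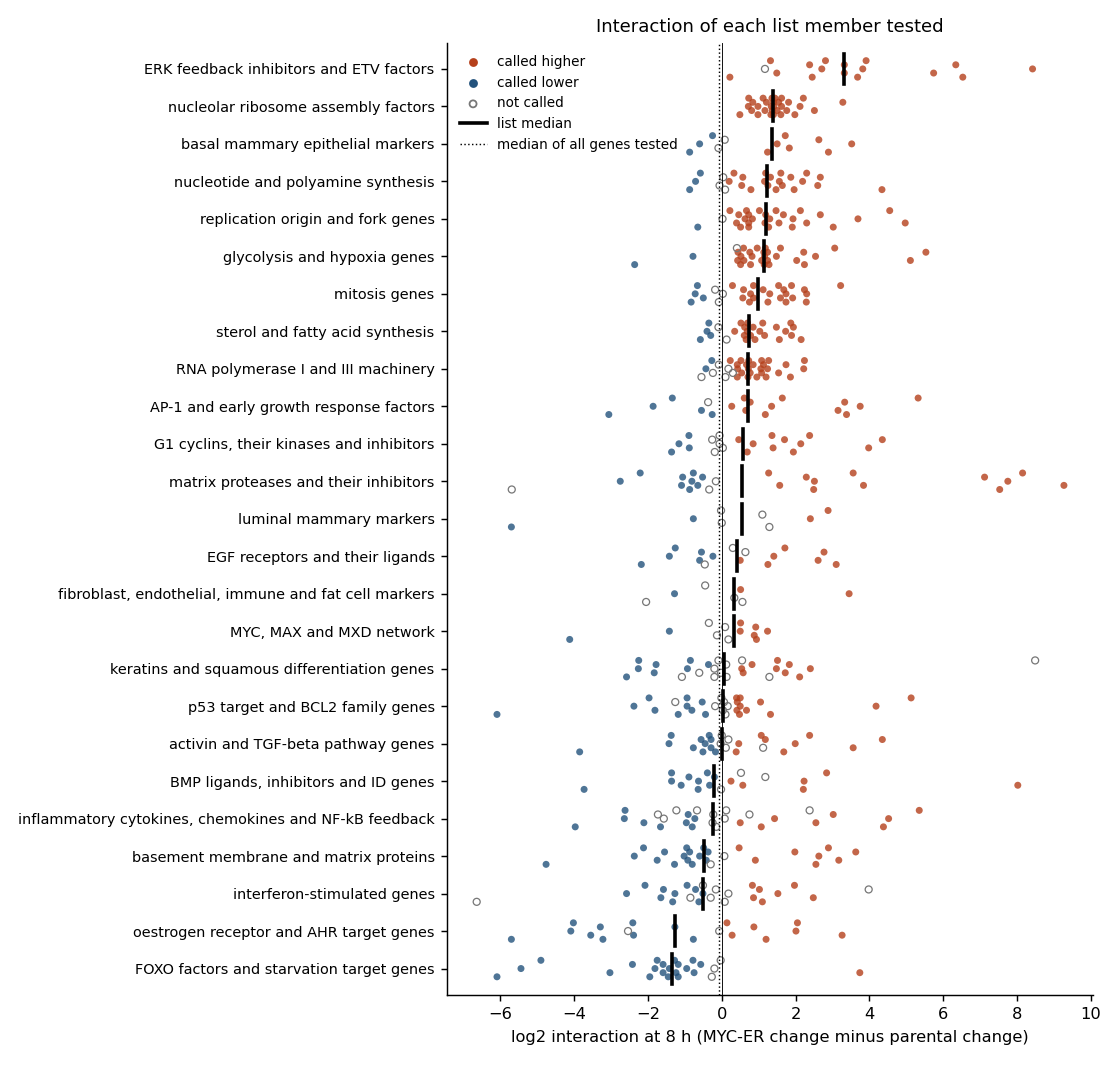
Log2 interaction of every list member tested, 1 point per gene, filled where called and open where not, with a bar at the list's median and a dotted line at the median over all genes. Points of the nucleolar and ERK lists lie right of 0, those of the FOXO list left of 0 except TRIB1, and proteases spread widely in both directions.

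Since the interaction equals the difference between the lines at 8 h minus that at 0 h, each list can be read from where it began. The median MYC-ER minus parental difference of the nucleolar list was -0.94 on the log2 scale at 0 h and 0.48 at 8 h. This list median thus began below and ended above the parental level. The median of the glycolysis list did the same, from -0.64 to 0.48, as did that of nucleotide synthesis, from -0.90 to 0.28. Single members could differ from their list's median, as RRM2 did by staying far below the parental level. The ERK list went from -2.75 to 0.18 and the FOXO list from 1.40 to -0.15, both ending near the parental level. The replication median closed only part of its gap, from -2.36 to -1.46, and so did the mitosis median, from -5.31 to -4.17. The ER and AHR target list went from 0.84 to -0.14.

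The same difference of changes at 24 and 48 h uses the same 0 h libraries and is therefore not independent of the 8 h values. In order of time, its median for the mitosis list was 0.99, 5.65 and 4.27, and for replication 1.19, 2.91 and 1.28. For the nucleolar list it was 1.40, 0.80 and 0.18, for the ERK list 3.32, 1.86 and 1.31, and for the FOXO list -1.35, -1.05 and -0.65. The 8 h median was thus the largest of the 3 in size for the nucleolar, ERK and FOXO lists and the smallest for mitosis and replication.

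**Figure D4:**
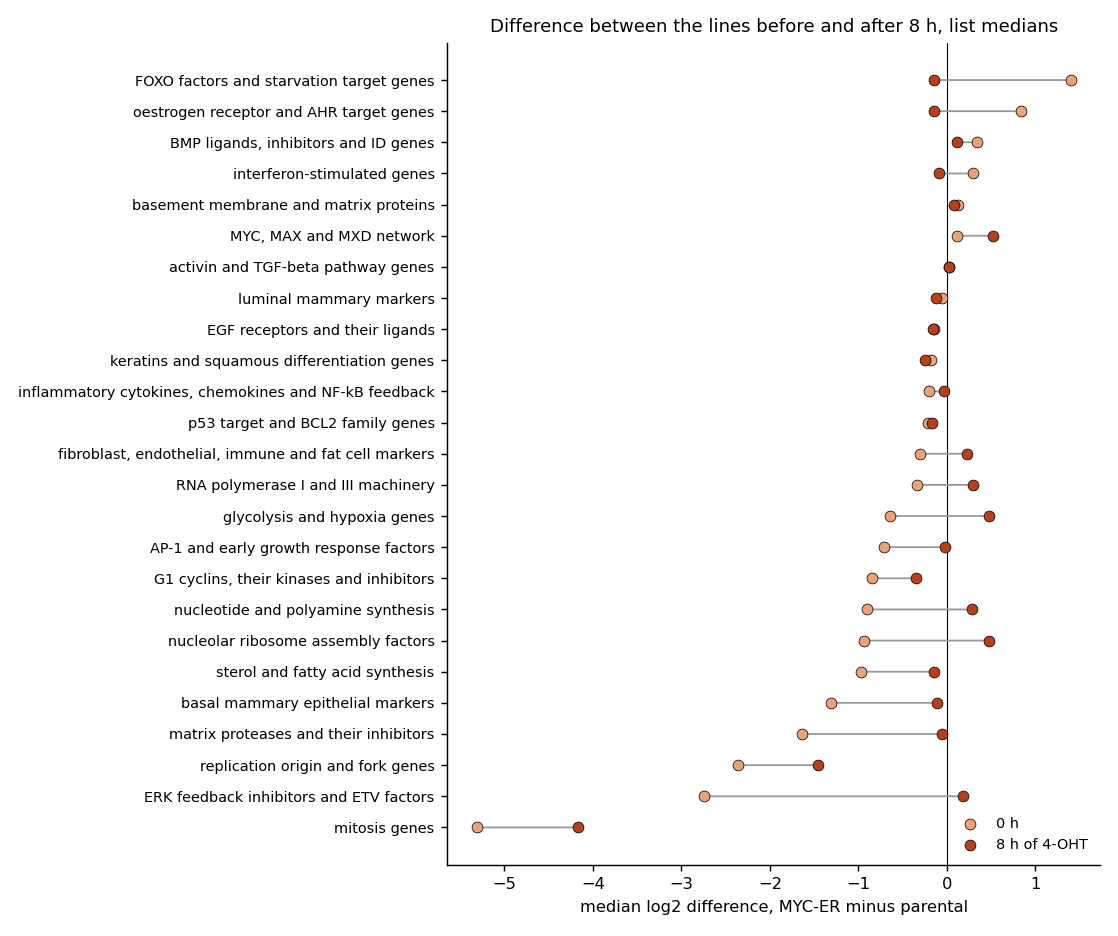
Median log2 difference between the lines, MYC-ER minus parental, for each list at 0 h and after 8 h of 4-OHT, joined by a line. The mitosis median stays far below 0, from -5.31 to -4.17. That of the nucleolar list crosses 0 from -0.94 to 0.48 and that of the FOXO list from 1.40 to -0.15.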

How the data were processed

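RNA was measured in 24 poly(A) libraries, 12 of them used for the interaction. Per the submitters' processing notes, the tools were Trimmomatic 0.39, STAR and StringTie 2.1.3b, with GRCh38 as the build; the annotation release and the use of strand in counting are not given in the sources used here. The deposited table holds whole-number estimated counts per gene, without normalization, for 60668 genes. StringTie derives counts from coverage, so limits from counting are approximate. The design assumed counts of reads, and the test was kept.

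With edgeR 4.0.16 in R 4.3.3, genes were filtered by filterByExpr, TMM factors were computed, and 1 mean per group was fitted over the 24 libraries. Each contrast had a two-sided quasi-likelihood F test and Benjamini-Hochberg adjustment (threshold 0.05). Biological variation was 0.151 (common coefficient). The standard error is the log2 value divided by the root of F. No 2 replicates agreed within sampling noise (chi-square per degree of freedom 163 to 268 for the 3 parental 0 h pairs and 15.4 to 27.7 for the other 9), so each library was counted once. The fit was tested on simulated data.

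Alternatives were other scalings, filters, DESeq2 1.42.0, the 4 groups alone, a replicate block, removal of the GC trend (lowess span 0.3) and leaving out each library. A further fit, chosen after seeing the data, joined the GC correction with the 4 groups alone. Named genes have a symbol and at least 10 CPM in 1 group and are the 8 largest interactions in each direction with a parental log2 change within 0.5 of 0, the 5 largest in each direction with opposite changes, those led by the parental arm with a log2 change of at least 1, the 5 largest shared changes in each direction and the 5 most abundant genes with an interaction of at least 2-fold; list members were named as the 2 largest in each direction, and others after their values were seen. The 25 lists hold 564 genes, of which 539 were tested; some genes are in 2 lists. The contrast, members, lists and rules were chosen with earlier results of these data known. Promoters are RefSeq windows on GRCh38.p14, matched by symbol, and none from chromosome 8 was printed. Some list members are not reported here by name.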

Additional observations from a re-analysis of the deposited data

Results flagged for a closer look

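The lines differed in their 8 h change at 12227 genes by edgeR's test of the difference itself. In the tests of each line, 42 genes were called in opposite directions with at least 2-fold in each line, 5 of them higher and 37 lower in MYC-ER cells.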

How the results depend on the processing

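The interaction count of 12227 ran from 11061 (at least 10 counts in every library) to 12983 over the alternatives and from 11638 to 12983 when 1 library was left out. Without a filter on low counts it was 11642 of 36454 genes tested, against 12227 of 22158, so the share called depends on the filter. The MYC-ER count of 14975 ran from 12692 to 15472, and from 14235 to 15472 without 1 library. The parental count of 6870 was 4085 with the GC trend removed and only the 4 groups fitted, a fit added after seeing the data, and ran from 4775 (without parental 0 h replicate 1) to 9195 (without parental 0 h replicate 2); the cause was not tested. With the GC trend removed in the fit of all groups the interaction count was 12495. With the replicate number as a block the counts were 12158, 14890 and 6838. Replicates share only a number: 11 of 18 same-numbered pairs of libraries had deviations that correlated above 0.1, with a median of 0.151, and 11 of 12 libraries correlated best with their own number. Library size alone moved the median interaction by -0.12 and upper quartile scaling by -0.10. Library size alone made 43.4% of 12410 calls higher ones, against 49.5%. Of 940 log2 interactions of genes named by the rule, most of them picked for large changes, 939 kept direction and call. The parental changes that define the opposite, parental-led and shared classes were not compared gene by gene over the alternatives. With the GC trend removed, the interaction of PYGO1 was -0.84 against -1.24, and that of GPER1 was 1.04 against 1.20. Without parental 8 h replicate 2, KLHL38 was at -7.20 (adjusted p 0.0757 in the same test). Over the 573 genes named by the rule or in lists, removing the GC trend left 536 graded the same, 19 weaker, 15 stronger and 3 reversed. List medians that changed sign were those of activin (-0.15 to 0.07), markers of other cell types (-1.27 to 0.43), cytokines (-0.50 to 0.04), keratins (-0.18 to 0.31), proteases (-0.47 to 0.63) and p53 targets (-0.08 to 0.09). With genes at 0 in a group set at 3 counts, the interferon median was -0.35 and the luminal 0.58. Depth limits the sizes of genes with under 10 counts in a group's libraries.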
